A study of Homo sapiens with 6 samples.

Results

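Small RNA silencing is the machinery through which microRNAs, and the siRNAs introduced into cells to lower a chosen gene, act on messenger RNA. The 10 genes described here encode its core: the Argonautes AGO1, AGO2, AGO3 and AGO4, the nuclease genes DROSHA and DICER1, the export receptor gene XPO5, the Dicer partner gene TARBP2, and the Argonaute-binding scaffold genes TNRC6A and TNRC6B. They were taken by gene symbol from a deposited table of 35009 genes, where each of the 10 had 1 row, and all 10 passed the filter on low counts. The table covers polyadenylated RNA of macrophages made from THP-1 cells (an established human line from a monocytic leukaemia) in 2 groups of 3 libraries. The siMCT4 group was exposed to oxidised low-density lipoprotein (ox-LDL) and is labelled as deficient in MCT4, the lactate exporter encoded by SLC16A3; the control group was exposed to ox-LDL alone as far as its labels say.

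The sources used here give no ox-LDL dose, exposure time or siRNA sequence, nor is it stated that the controls received a non-targeting siRNA. Carrying an siRNA and lacking MCT4 therefore cannot be told apart in any difference between the groups. The libraries of a group are not said to be separate cultures, so p-values reflect the spread among these samples, which may be technical. In bulk RNA, fewer cells of a type and less RNA per cell cannot be told apart either.

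In the canonical pathway, Drosha crops the primary microRNA transcript in the nucleus, exportin-5 carries the hairpin to the cytoplasm, and Dicer, with TRBP, cuts it to a duplex. An Argonaute then keeps 1 strand of that duplex as a guide. A synthetic siRNA duplex skips the nuclear steps and is loaded directly; AGO2 is the human Argonaute best known for slicing a fully paired target, which is how an siRNA lowers its mRNA. For partly paired microRNA targets, Argonautes recruit the TNRC6 (GW182) proteins, which bring in deadenylases and decapping factors.

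Total counts were 61880619 to 69103124 in the siMCT4 libraries and 65010219 to 69181938 in the control libraries. SLC16A3 stood at 1.13, 1.15 and 1.39 FPKM (fragments scaled to gene length and library size) in siMCT4 libraries 1, 2 and 3, against 11.1, 9.86 and 10.4 FPKM in control libraries 1, 2 and 3. Its log2 change was -3.20, with SE 0.102 and adjusted p = 1.12e-06; for its FPKM an exact permutation test, two-sided, had p = 0.1, which no design of 3 against 3 can go below. The 6 monocyte and macrophage markers summed to 824.4 to 855.5 FPKM in siMCT4 and 911.5 to 943.9 FPKM in controls. CD68 stood at 400.1 to 453 FPKM in siMCT4 and 374 to 385 FPKM in controls, and CSF1R at 165 to 184 FPKM in siMCT4 and 289.5 to 309 FPKM in controls, neither overlapping between groups. ITGAM stood at 141 to 147 FPKM in siMCT4 and 145 to 156 FPKM in controls, and SPI1 at 57.5 to 107.7 FPKM in siMCT4 and 72.0 to 75.7 FPKM in controls. CD14 was low, at 1.43 to 2.48 FPKM in siMCT4 and 6.50 to 7.00 FPKM in controls, and LYZ was at 8.00 to 11.8 FPKM in siMCT4 and 12.1 to 13.5 FPKM in controls. The 3 epithelial markers summed to at most 0.0875 FPKM in siMCT4 libraries and to 0 in controls, and the 3 fibroblast markers to at most 0.839 FPKM in siMCT4 and 0.745 FPKM in controls. The B cell marker CD79A stood at 1.45 to 1.84 FPKM in siMCT4 and 0.168 to 0.263 FPKM in controls; the endothelial markers (TIE1 and KDR) summed to 6.61 to 7.16 FPKM in siMCT4 and 8.27 to 9.29 FPKM in controls. The part of these markers in the results below was not tested.

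MCT4-deficient macrophages had less AGO2 mRNA and more TNRC6A, TNRC6B and DICER1 mRNA than controls. AGO2 stood at 0.388 of the control level, TNRC6A at 2.07-fold, TNRC6B at 1.76-fold and DICER1 at 1.35-fold. These 4 calls held in all 21 alternative settings. Smaller differences were called for AGO1 (lower) and AGO3, AGO4 and TARBP2 (higher), and those calls depended on the setting, while XPO5 and DROSHA did not pass the test. Calls are genes whose p in the quasi-likelihood test of edgeR, adjusted by Benjamini-Hochberg over all tested genes, was under 0.05, and "rose" and "fell" are used below of called genes.

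Calls were common in this comparison: 41.4% of 19944 tested genes were called, 20.6% higher and 20.8% lower. Of the 10 silencing genes 8 were called, 6 higher and 2 lower, with a median log2 change of 0.21 beside -0.0064 over all tested genes. Without siMCT4 replicate 1, control replicate 2 or control replicate 3, 3 were called higher, and without control replicate 1 only AGO2 was called lower. With FPKM rescaled to TPM, 68.2% of calls were higher against 49.8% in the edgeR fit, and the median log2 change of all genes was 0.137; 7 of the silencing genes were then higher and 1 lower. The FPKM values of siMCT4 and control libraries did not overlap for 9 of the 10 genes, where the same holds for 55.1% of tested genes.

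**Figure D1:**
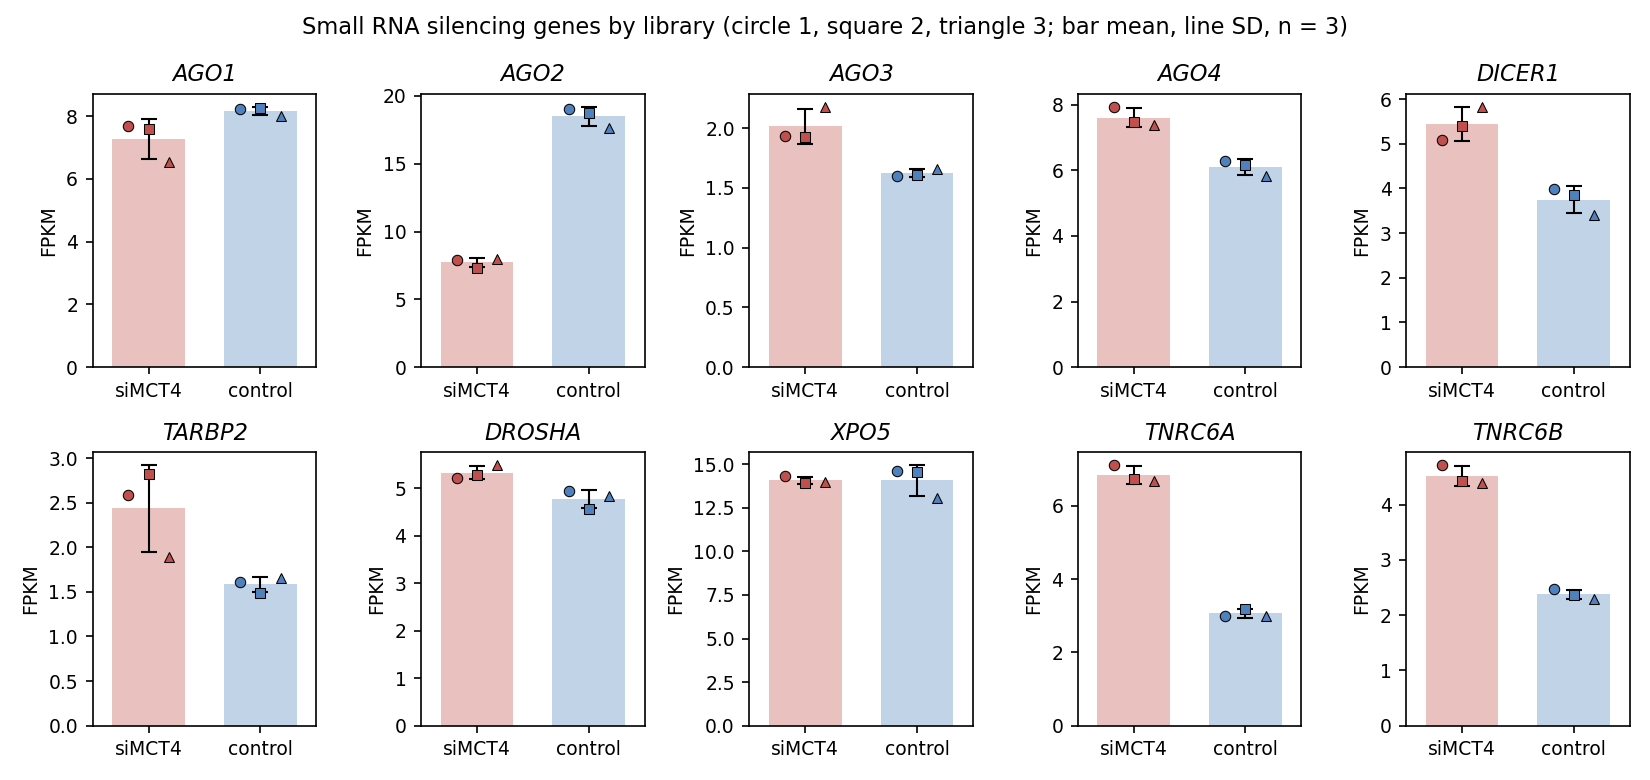
FPKM (vertical axes, each from 0) of the 10 silencing genes in siMCT4 (red, left) and control (blue, right) libraries; symbols are libraries 1 (circle), 2 (square) and 3 (triangle), bars are means and lines SD, n = 3. AGO2 sat between 7.33 and 7.98 FPKM in siMCT4, below every control, while TNRC6A and TNRC6B sat above every control; only XPO5 had overlapping groups.

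AGO2 (ENSG00000123908; GRCh38 chromosome 8, 140520156 to 140635633, - strand) was the Argonaute that changed most. It had 7.87, 7.33 and 7.98 FPKM in siMCT4 libraries 1, 2 and 3, against 19.1, 18.7 and 17.7 FPKM in control libraries 1, 2 and 3. All siMCT4 libraries lay far below all controls, with a narrow spread in each group. In deposited counts this was 8238, 8359 and 9314 against 22647, 20935 and 19938. The log2 change of AGO2 was -1.37 with SE 0.0514 (adjusted p = 2.48e-06), and 88.8% of tested genes had a smaller absolute change.

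AGO1, AGO3 and AGO4 are guide-binding Argonautes that take part in microRNA repression, with little or no slicing known for AGO1 and AGO4. They lie side by side on the + strand of chromosome 1 in the order AGO4 (ENSG00000134698; 35808016 to 35857890), AGO1 (ENSG00000092847; 35869808 to 35930532) and AGO3 (ENSG00000126070; 35930718 to 36072500). The gaps are 11917 bases between AGO4 and AGO1 and 185 bases between AGO1 and AGO3. AGO1, in the middle, was lower in siMCT4 and its neighbours on either side were higher.

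AGO1 had 7.67, 7.59 and 6.55 FPKM in siMCT4 libraries 1, 2 and 3, against 8.25, 8.26 and 8.02 FPKM in the controls. The siMCT4 values were all lower, library 3 most of all. AGO1 fell by 0.28 (SE 0.0660, adjusted p = 0.0123), but it did not pass on log2(FPKM + 1), where the log2 change was -0.15 (adjusted p = 0.108), on TPM (-0.08, adjusted p = 0.398) or without control replicate 1 (-0.26, adjusted p = 0.0508); its adjusted p ran from 0.00101 to 0.398 over all alternatives. Without siMCT4 replicate 3 the fall was 0.19 on the log2 scale, and AGO1 was still called (adjusted p = 0.00392).

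AGO4 had 7.95, 7.49 and 7.39 FPKM in siMCT4 libraries against 6.30, 6.17 and 5.82 FPKM in controls. AGO3, the least abundant Argonaute, had 1.93, 1.93 and 2.18 FPKM in siMCT4 libraries against 1.595, 1.61 and 1.66 FPKM in controls. For both genes every siMCT4 library was above every control. AGO4 rose by 0.21 (SE 0.0550, adjusted p = 0.0186) and AGO3 by 0.20 (SE 0.0684, adjusted p = 0.0478). Both calls were lost with an offset for GC content (0.14 and adjusted p = 0.0671 for AGO4, 0.12 and adjusted p = 0.163 for AGO3). They were also lost without siMCT4 replicate 1 or control replicate 2 or 3, that of AGO3 without control replicate 1 as well (AGO4 adjusted p 0.0533, 0.0628 and 0.0675; AGO3 0.05, 0.133, 0.0896 and 0.117). Over all alternatives the adjusted p ran from 0.00184 to 0.128 for AGO4 and from 0.00876 to 0.200 for AGO3.

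The make-up of the Argonaute transcripts differed between the groups. In siMCT4 libraries AGO2 accounted for 31.4 ± 1.54% of the summed FPKM of AGO1 to AGO4, against 53.8 ± 0.465% in controls (SD, n = 3 each here and below). AGO4 took 30.9 ± 0.314% in siMCT4 and 17.7 ± 0.170% in controls, AGO1 29.5 ± 2.10% and 23.8 ± 0.391%, and AGO3 8.19 ± 0.758% and 4.72 ± 0.252%. AGO2, AGO4 and AGO1 thus stood at similar levels in siMCT4 cells, whereas AGO2 was the most abundant Argonaute in every control. The 4 genes together summed to 24.6 ± 0.703 FPKM in siMCT4 and 34.4 ± 1.08 FPKM in controls, while AGO1, AGO3 and AGO4 without AGO2 summed to 16.9 ± 0.722 FPKM in siMCT4 and 15.9 ± 0.339 FPKM in controls. These shares are descriptions and carry no test of their own. The scale matters for small differences: XPO5 had a mean of 14.1 FPKM in both groups but a log2 change of -0.11 in the edgeR fit. The direction of the small difference in the sum without AGO2 may therefore depend on the scale.

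TNRC6A and TNRC6B encode GW182 proteins, which bind Argonautes through glycine-tryptophan repeats. TNRC6A (ENSG00000090905; chromosome 16, 24610209 to 24826221, + strand) had 7.11, 6.74 and 6.67 FPKM in siMCT4 libraries 1, 2 and 3, against 2.98, 3.20 and 3.01 FPKM in the controls. TNRC6B (ENSG00000100354; chromosome 22, 40044817 to 40335808, + strand) had 4.72, 4.44 and 4.40 FPKM in siMCT4 libraries against 2.47, 2.37 and 2.29 FPKM in controls. The lowest siMCT4 library was well above the highest control for both genes. TNRC6A rose by 1.05 (SE 0.0509, adjusted p = 7.01e-06) and TNRC6B by 0.82 (SE 0.0521, adjusted p = 2.41e-05). The remaining family member, TNRC6C, was less abundant (1.53 ± 0.0305 FPKM in siMCT4, 0.876 ± 0.103 FPKM in controls) and rose by 0.69 (adjusted p = 0.0016).

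Summed, TNRC6A and TNRC6B transcripts came to 11.4 ± 0.413 FPKM in siMCT4 and 5.44 ± 0.135 FPKM in controls. With the smaller Argonaute sum, the ratio of TNRC6A and TNRC6B to Argonaute FPKM was 0.465, 0.459 and 0.459 in siMCT4 libraries 1, 2 and 3, against 0.155, 0.160 and 0.160 in control libraries 1, 2 and 3. The share of TNRC6A within the pair was 60.2 ± 0.0889% in siMCT4 and 56.3 ± 1.37% in controls.

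**Figure D2:**
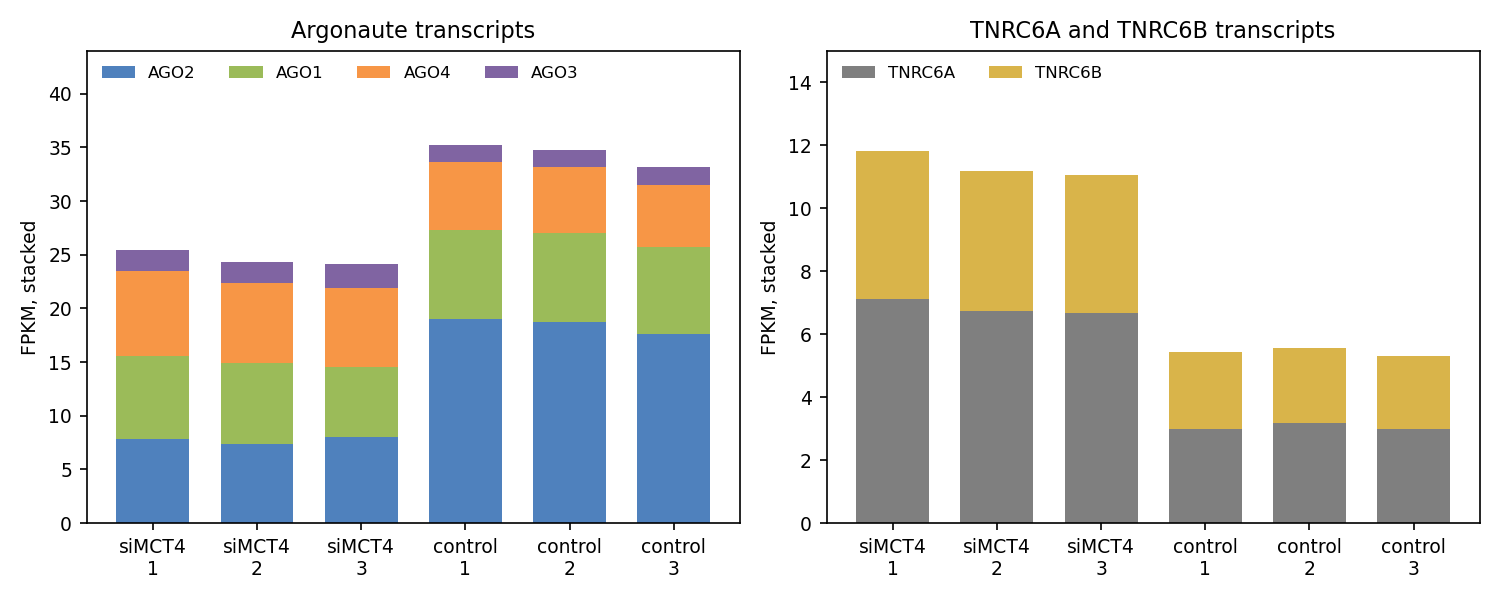
FPKM (vertical axes) stacked by gene for each library, siMCT4 on the left and control on the right of each panel: the 4 Argonautes (left panel) and TNRC6A with TNRC6B (right panel). The AGO2 segment is shorter in each siMCT4 library and the TNRC6 columns are taller, 11.1 to 11.8 FPKM against 5.30 to 5.57 FPKM.

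The 250 bases before the RefSeq start sites (GRCh38.p14) of the 3 genes that rose in every setting, TNRC6A, TNRC6B and DICER1, are printed 5′ to 3′ on the gene's strand so that their different composition can be seen; capitals mark CCAAT boxes on either strand (CCAAT or ATTGG).
TNRC6A, chr16:24729401-24729650, + strand: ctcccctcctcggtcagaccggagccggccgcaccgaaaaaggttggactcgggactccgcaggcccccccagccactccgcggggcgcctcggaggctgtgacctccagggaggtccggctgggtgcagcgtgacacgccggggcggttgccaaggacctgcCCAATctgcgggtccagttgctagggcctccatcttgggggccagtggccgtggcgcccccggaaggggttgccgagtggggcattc
TNRC6B, chr22:40044584-40044833, + strand: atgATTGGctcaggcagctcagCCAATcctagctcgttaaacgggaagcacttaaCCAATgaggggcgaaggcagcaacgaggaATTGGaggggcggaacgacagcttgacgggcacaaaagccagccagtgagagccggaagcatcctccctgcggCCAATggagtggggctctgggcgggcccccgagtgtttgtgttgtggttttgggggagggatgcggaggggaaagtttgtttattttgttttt
DICER1, chr14:95158011-95158260, - strand: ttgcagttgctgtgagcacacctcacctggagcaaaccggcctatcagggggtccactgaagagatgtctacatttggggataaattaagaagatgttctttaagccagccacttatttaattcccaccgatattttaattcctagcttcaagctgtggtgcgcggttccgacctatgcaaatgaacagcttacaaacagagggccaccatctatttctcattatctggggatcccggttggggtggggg
The windows are 71.6% (TNRC6A), 56.4% (TNRC6B) and 48.0% (DICER1) G or C. The TNRC6A start site that follows its window lies 119442 bases inside the gene's deposited bounds, and DICER1 has 5 RefSeq start sites, of which the one at the deposited gene start is shown.

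Both strands of these windows were searched for 5 short motifs in the 9 silencing genes with a RefSeq window. AGO2 had no window in the source used, so it is not among the 9. The start site after the AGO1 window lies 13401 bases from that gene's deposited start. TARBP2 has 3 RefSeq start sites, of which the one nearest its deposited start was used. CCAAT boxes were found in 5 of the 9 (5 matches in TNRC6B, 1 in TNRC6A, 0 in DICER1), where 32.0% of all 35116 promoter windows of 250 bases hold one. A GC box (GGGCGG) was found in 7 of the 9, against 42.6% of all windows. The TATA box (TATAAA), the E-box (CACGTG) and an interferon-stimulated response element (GAAA and GAAA with 2 bases between) were found in 0 of the 9, against 10.7%, 6.35% and 3.02% of all windows. No matches of different motifs overlapped in these windows, and a match is a description of letters, not of a bound factor.

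DICER1 (ENSG00000100697; chromosome 14, 95086228 to 95158010, - strand) encodes the enzyme that makes microRNA duplexes from hairpins. It had 5.09, 5.41 and 5.83 FPKM in siMCT4 libraries 1, 2 and 3, against 3.98, 3.85 and 3.41 FPKM in the controls. All siMCT4 libraries were above all controls. DICER1 rose by 0.43 (SE 0.0746, adjusted p = 0.00303), with a highest adjusted p of 0.0294 over the alternatives. As AGO2 fell and DICER1 rose, AGO2 FPKM per DICER1 FPKM was 1.42 ± 0.106 in siMCT4 and 4.95 ± 0.211 in controls. The size of this ratio in each group rests on the gene lengths behind the authors' FPKM.

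TARBP2 (ENSG00000139546; chromosome 12, 53500921 to 53506431, + strand) encodes TRBP, a double-stranded RNA-binding partner of Dicer. It had 2.59, 2.83 and 1.89 FPKM in siMCT4 libraries 1, 2 and 3, against 1.61, 1.49 and 1.66 FPKM in the controls. Library 3 was much closer to the controls than the other 2 siMCT4 libraries. TARBP2 rose by 0.51 (SE 0.165, adjusted p = 0.0423), by 0.69 without siMCT4 replicate 3 (adjusted p = 0.00218), and with library 3 alone against the controls the log2 change was 0.16 (adjusted p = 0.553).

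The TARBP2 call was lost without siMCT4 replicate 1 or 2 or any 1 control (adjusted p 0.0855 to 0.127), and its adjusted p ran from 0.00218 to 0.553 over all alternatives. Its longest annotated transcript is 60.8% G or C. The 1297 expressed genes with at least 60% GC had median log2 ratios to the control mean of -0.53, -0.57 and -0.18 in siMCT4 libraries 1, 2 and 3. TARBP2 had ratios of 0.60, 0.72 and 0.14 there, and an offset for GC content moved its change to 0.88 (adjusted p = 0.0111). PRKRA, which encodes PACT, the other double-stranded RNA-binding partner of Dicer, did not pass at a log2 change of -0.22 (adjusted p = 0.0535, and from 0.0118 to 0.893 over the alternatives).

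Among the 10 silencing genes, those of the nuclear steps, XPO5 and DROSHA, did not pass the test. XPO5 (ENSG00000124571; chromosome 6, 43522334 to 43576038, - strand) had 14.3, 13.9 and 14.0 FPKM in siMCT4 libraries against 14.6, 14.5 and 13.1 FPKM in controls, with overlapping groups. Its log2 change was -0.11 (SE 0.0515, adjusted p = 0.133), and 0.000988 on log2(FPKM + 1). XPO5 shares 4.08% of its annotated exon bases with POLR1C on the opposite strand, the largest such overlap among the 10 genes; the strand setting of the authors' counting is not given.

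DROSHA (ENSG00000113360; chromosome 5, 31400494 to 31532093, - strand) had 5.22, 5.28 and 5.49 FPKM in siMCT4 libraries against 4.94, 4.56 and 4.83 FPKM in controls. The FPKM groups did not overlap, yet in CPM (counts scaled to library size with TMM) the levels were 43.1 ± 1.21 in siMCT4 and 41.6 ± 2.02 in controls, and the log2 change was 0.05 (SE 0.0593, adjusted p = 0.546). On TPM the log2 change of DROSHA was 0.24 and passed (adjusted p = 0.0171), as did 0.13 among genes with a mean FPKM of at least 1 (adjusted p = 0.0496); its adjusted p ran from 0.0171 to 0.945 over the alternatives. Its partner in the microprocessor, DGCR8, did not pass at a log2 change of 0.11 (adjusted p = 0.389, and from 0.035 to 0.912 over the alternatives).

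**Figure D3:**
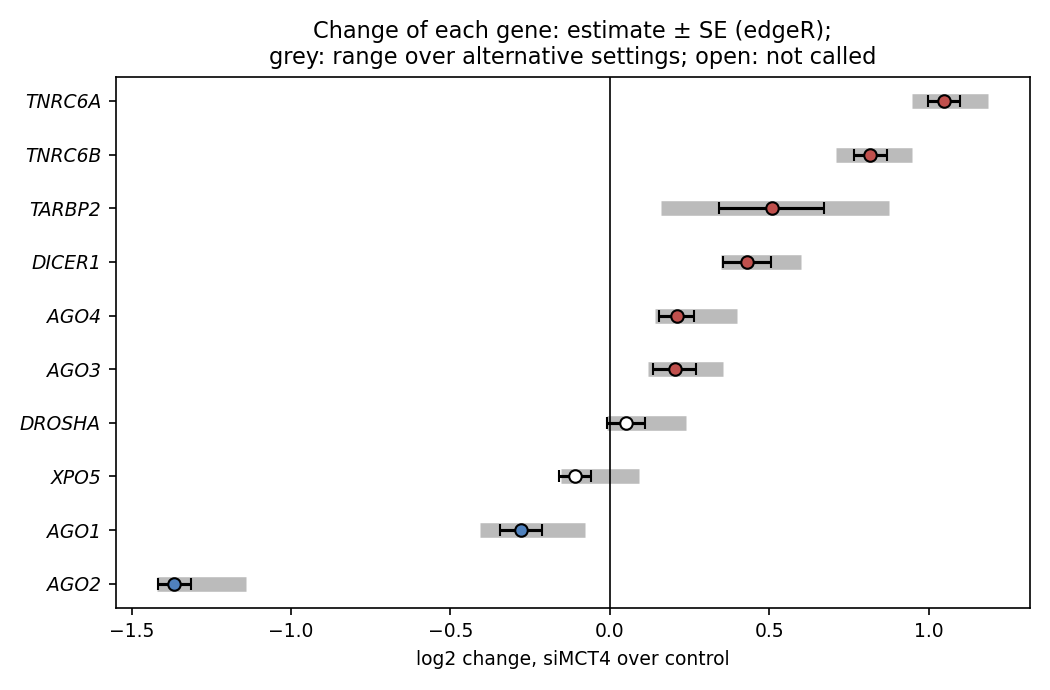
Log2 change of each silencing gene, siMCT4 over control (horizontal axis), as edgeR's estimate with its SE; filled points were called, open points were not, and grey bars span 21 alternative settings. The bars of TNRC6A, TNRC6B, DICER1 and AGO2 keep clear of 0, as do those of the smaller called changes, while those of DROSHA and XPO5 cross it.

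The order of the FPKM levels within each group, which compares genes per length, put XPO5 first in siMCT4 at 14.1 ± 0.197 FPKM, followed by AGO2 (7.73 ± 0.347), AGO4 (7.61 ± 0.297), AGO1 (7.27 ± 0.629) and TNRC6A (6.84 ± 0.238). The ranges of neighbours from AGO2 to TNRC6A overlapped, so none of these 4 differed from the next beyond its spread, though AGO2 and TNRC6A did not overlap each other. DICER1 (5.44 ± 0.373), DROSHA (5.33 ± 0.142), TNRC6B (4.52 ± 0.174), TARBP2 (2.44 ± 0.487) and AGO3 (2.01 ± 0.144) came next, with overlap between DICER1 and DROSHA and between TARBP2 and AGO3.

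In controls the order was AGO2 (18.5 ± 0.734 FPKM), XPO5 (14.1 ± 0.875), AGO1 (8.18 ± 0.133), AGO4 (6.10 ± 0.247), DROSHA (4.78 ± 0.191), DICER1 (3.75 ± 0.302), TNRC6A (3.06 ± 0.117), TNRC6B (2.38 ± 0.0865), AGO3 (1.62 ± 0.0344) and TARBP2 (1.58 ± 0.0876). Only AGO3 and TARBP2 overlapped as neighbours. AGO2 thus ranked below XPO5 in siMCT4 and above it in controls, and TNRC6A ranked above DICER1 in siMCT4 and below it in controls.

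The partner genes were followed in 8 lists of 107 genes, of which 104 had a row and 95 were tested. Of these 34 rose, 15 fell and 46 did not pass, so 51.6% were called beside the 41.4% of all tested genes. Calls were more common among genes with more counts: with a minimum count of 50, 4084 of 15152 genes were called higher and 4006 lower. Neither the partners nor the silencing genes were compared with genes of like level, so the 51.6% is not shown to be an excess. Among the deadenylase and GW182 partners, 10 of 18 rose and 3 fell (median log2 change 0.20). BTG2, an adaptor that activates the CCR4-NOT deadenylase, rose by 1.01 (adjusted p = 3.34e-05), the CCR4-NOT subunit CNOT9, which TNRC6 proteins bind, by 0.63 (adjusted p = 0.00016) and the catalytic subunit CNOT6 by 0.55 (adjusted p = 0.000153). CNOT4, a ubiquitin ligase, rose by 0.67 (adjusted p = 0.000664). The CCR4-NOT scaffold CNOT1 did not pass at a log2 change of 0.07 (adjusted p = 0.342, and from 0.00773 to 0.964 over the alternatives). PABPC1, the poly(A)-binding protein, fell by 0.42 (adjusted p = 0.00108), as did TOB1 and the PAN2 deadenylase, by 0.42 and 0.41 (adjusted p = 0.00513 and 0.0171); PAN2 was not called without control replicate 1 or 3 (adjusted p = 0.0639 and 0.0634).

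Among decapping and decay factors 7 of 12 rose and 1 fell (median 0.28). The decapping activators DCP1A (log2 change 0.67, adjusted p = 0.000137) and EDC3 (0.52, adjusted p = 0.000284) and the eIF4E-transporter gene EIF4ENIF1 (0.57, adjusted p = 0.000416) rose, and the P-body gene LSM14A fell by 0.34 (adjusted p = 0.00251). Among genes of Argonaute loading, turnover and handling 8 of 17 rose and 1 fell (median 0.21). AHSA1, the activator of HSP90, which opens Argonautes for loading, rose by 0.94 (adjusted p = 0.000109), with 41.02 ± 4.07 FPKM in siMCT4 and 19.8 ± 1.19 FPKM in controls.

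HSP90AB1 rose by 0.34 (adjusted p = 0.000964) and the RNA helicase MOV10, an Argonaute-associated protein, by 0.61 (adjusted p = 0.000158), whereas HSP90AA1 did not pass at a log2 change of 0.02 (adjusted p = 0.741, and from 0.00629 to 0.997 over the alternatives, and below 0 with a GC offset). LIMD1, which links Argonautes to TNRC6 proteins in human cells, fell by 0.94 (adjusted p = 0.000111), with 1.62 ± 0.160 FPKM in siMCT4 and 2.87 ± 0.0501 FPKM in controls.

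Of 10 microprocessor-related genes 2 rose and 0 fell (median 0.04), namely the RNA editing enzyme ADAR by 0.61 (adjusted p = 3.33e-05) and the helicase DDX5 by 0.38 (adjusted p = 0.00131). Of 7 export and Dicer-related genes 3 rose and 2 fell (median 0.07). RCC1 and RANGAP1, which set the RAN gradient, rose by 0.32 and 0.30 and the RNA kinase CLP1 by 0.54 (adjusted p = 0.00577, 0.00961 and 0.0188), while RAN itself fell by 0.52 and the editing enzyme ADARB1 by 0.69 (adjusted p = 0.00192 and 0.00229). The tailing, trimming and uptake genes were even, with 3 of 12 tested higher and 3 lower (median 0.03). PNPT1, a mitochondrial 3′ exoribonuclease, rose by 0.85 (adjusted p = 1.67e-05), PARN, a trimming deadenylase, by 0.30 and the poly(A) polymerase TENT2 by 0.19, while TUT7, SND1 and TENT4B fell by 0.25, 0.24 and 0.33 (adjusted p from 0.00145 for TUT7 to 0.0256 for TENT4B among the 5 genes after PNPT1). CLP1 was not called without siMCT4 replicate 1 or 2 or control replicate 1 or 2 (adjusted p 0.0585 to 0.0627), nor was TENT4B (0.097 to 0.116). PARN and SND1 were not called without siMCT4 replicate 1 (0.0533 and 0.0586) or control replicate 2 (0.0595 and 0.0749), nor TENT2 without any 1 control (0.0556 to 0.0956).

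Of the germline PIWI pathway 4 of 8 genes were tested, with PIWIL4 higher by 0.23 (adjusted p = 0.0411, with 0.00363 to 0.193 over the alternatives and no call without siMCT4 replicate 1 or 2 or any 1 control) and PLD6, a mitochondrial phospholipase family member, lower by 0.57 (adjusted p = 0.0106). PIWIL1, PIWIL3 and TDRD1 were not analysed here.

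**Figure D4:**
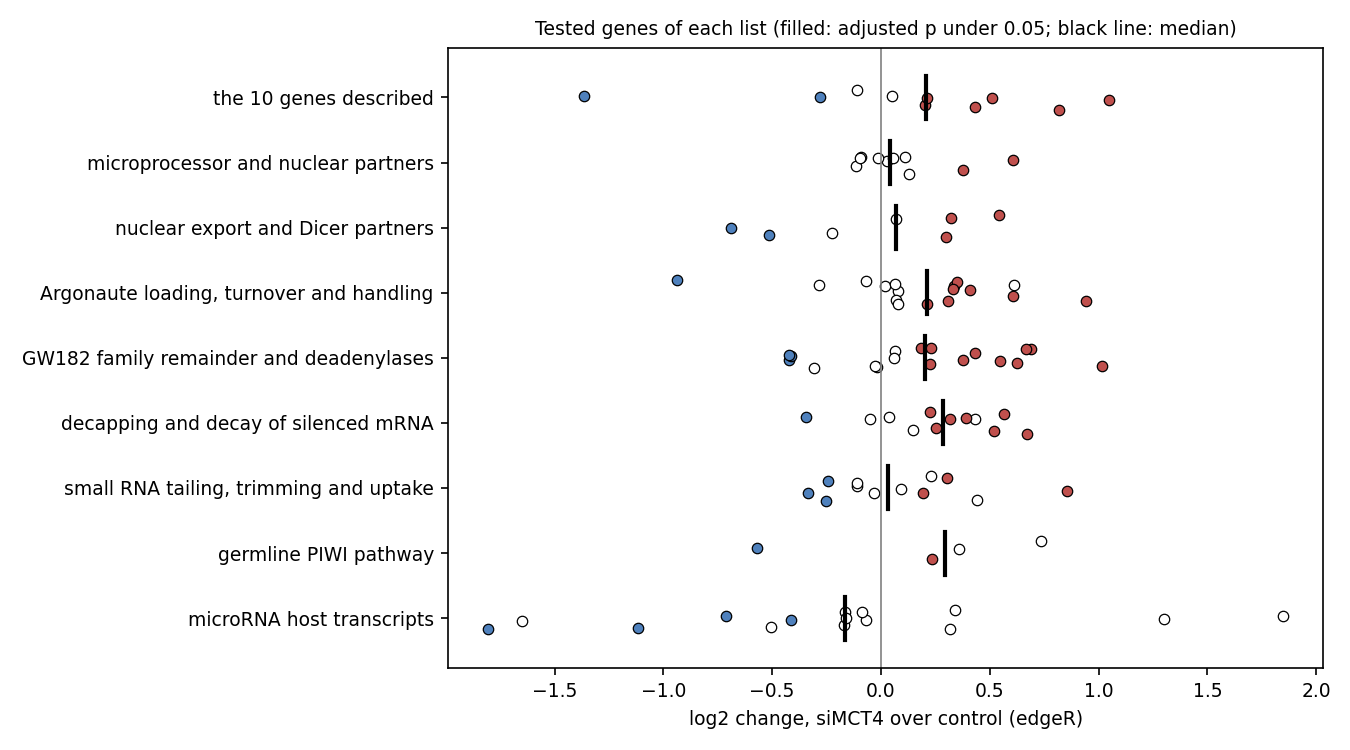
Log2 change, siMCT4 over control (horizontal axis), of the tested genes of the 10 silencing genes and of 8 partner lists (rows); filled points were called (red higher, blue lower), open points were not, and black lines are list medians. Higher calls outnumber lower ones among deadenylase, decapping and loading genes, and the microRNA host transcripts have 4 lower and 0 higher calls. Of all tested genes 20.6% were called higher and 20.8% lower, and the number of lower host calls is not a result about host transcripts.

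Host transcripts, from which some microRNAs are cropped, were the remaining list: 15 of 21 were tested, 0 rose and 4 fell (median log2 change -0.17). The 26.7% called here stood below the 41.4% of all tested genes, of which 20.8% were called lower, so the number of lower calls is not a result about host transcripts. MIR223HG (chromosome X, 66015414 to 66020426, + strand), whose bounds hold miR-223, a myeloid microRNA, had 0.623, 0.814 and 0.852 FPKM in siMCT4 libraries, against 2.38, 2.77 and 2.31 FPKM in controls. It fell by 1.80 (SE 0.155, adjusted p = 9.96e-05), with no overlap between the groups. MIR503HG (chromosome X, 134543119 to 134546642, - strand), which holds miR-503, had 3.18, 2.86 and 2.92 FPKM in siMCT4 libraries against 6.23, 5.51 and 6.27 FPKM in controls. It fell by 1.11 (SE 0.0976, adjusted p = 0.00011). SMC4 and MCM7, protein-coding genes of chromosome condensation and DNA replication that carry microRNA clusters in introns, fell by 0.41 and 0.71 (adjusted p = 0.0044 and 0.0141); MCM7 was not called without control replicate 1 or 2 (adjusted p = 0.0517 and 0.0512).

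The mature microRNAs were not measured by these polyadenylated libraries. Their RefSeq sequences (GRCh38.p14) are given for the 2 hosts that fell most and for MIR155HG, 5′ to 3′ with the seed (bases 2 to 8) in capitals; no seed is shared among the 3.
hsa-miR-223-3p, chrX:66018937-66018958, + strand: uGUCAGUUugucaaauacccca
hsa-miR-503-5p, chrX:134546371-134546393, - strand: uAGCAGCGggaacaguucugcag
hsa-miR-155-5p, chr21:25573983-25574006, + strand: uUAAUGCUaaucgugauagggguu
MIR155HG had 7.22, 7.73 and 10.2 FPKM in siMCT4 libraries against 6.48, 6.06 and 6.17 FPKM in controls. Library 3 was the highest, and the log2 change of 0.32 did not pass (adjusted p = 0.113, with 0.0076 to 0.256 over the alternatives).

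Other hosts did not pass the test either. MIR22HG did not pass at a log2 change of 0.34 (adjusted p = 0.0888, and from 0.0129 to 0.642 over the alternatives) and MIR17HG one of -0.17 (adjusted p = 0.351, with 0.174 to 0.871). EGFL7, which hosts miR-126, was uneven, with 2.52, 1.61 and 9.67 FPKM in siMCT4 libraries 1, 2 and 3, against 13.0, 13.3 and 13.9 FPKM in controls. Its log2 change was -1.65 (adjusted p = 0.0617), and -2.79 without siMCT4 replicate 3 (adjusted p = 7.88e-06, with 7.88e-06 to 0.171 over the alternatives); its longest transcript is 68.1% G or C.

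The genes whose centred log2 CPM profile over the 6 libraries lay closest to that of AGO2, among 10817 with a mean FPKM of at least 1, were the translation elongation factor gene EEF2 (root mean square difference 0.0344), SASH1 (0.0455) and NID1 (0.0531), which fell by 1.36, 1.33 and 1.43 on the log2 scale. Closest to DICER1 were CDK17 (0.0329), BIRC2 (0.0331) and ANKRD12 (0.0351), which rose by 0.47, 0.44 and 0.39. With 6 libraries in 2 groups this likeness mostly describes the difference between the groups.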

How the data were processed

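RNA of 6 libraries was selected for poly(A), prepared with a strand-marking dUTP method and sequenced as paired ends, per the labels' protocols. Per the submitters' processing notes, cutadapt 1.9 and HISAT2 2.2.1 were used with GRCh38; the counter, its annotation and its strand handling: not given in the sources used here. In the table, per the file headers, the authors deposited whole-number counts and FPKM for 35009 genes, in 12 value columns of which 0 went unused. Of counts from 2 to 41, 58.7% to 60.9% were even, so 2 counts may stand for 1 fragment.

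The counts were tested with edgeR 4.0.16 (R 4.3.3): TMM scaling, filterByExpr (minimum count 10, minimum total 15), the quasi-likelihood test with group as the sole factor, two-sided, Benjamini-Hochberg adjustment over 19944 genes and a threshold of 0.05. Standard errors are the log2 change over the square root of F. Log2 changes are siMCT4 over control. FPKM values are the authors'. GC content came from the longest GENCODE 29 transcript of each gene (GRCh38). DESeq2 1.42.0 and limma 3.58.1 served as alternatives. The fits were also run on simulated counts, with far fewer changed genes than were called here and without GC bias. That run therefore cannot test the scaling or the calls in these data.

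The silencing genes and partner lists were chosen with earlier results of these data known. Named partners are up to 3 called genes per direction and list with the smallest adjusted p; profiles most like AGO2 and DICER1 are the 3 with the smallest root mean square difference. TNRC6C, CNOT1, CNOT4, DGCR8, PRKRA, HSP90AA1, MCM7, MIR155HG, MIR22HG, MIR17HG and EGFL7 were named after their values were seen. T cell markers were not analysed here, and the summed level of the B cell markers is not reported here.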

Additional observations from a re-analysis of the deposited data

How the results depend on the processing

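Over 21 alternatives AGO2, TNRC6A, TNRC6B, DICER1 and SLC16A3 kept their direction and their call. AGO1 did not pass on log2(FPKM + 1) (log2 change -0.15, also without a filter and with a mean FPKM of at least 1), on log2(FPKM + 0.1) (-0.17) or on TPM (-0.078), so that 1 silencing gene was lower in each of these 5 fits; XPO5 then stood at 0.000988, 0.0012 and 0.092, above 0. DROSHA passed with a mean FPKM of at least 1 (0.13; 2759 genes lower there) and on TPM (0.24), and stood at -0.0072 with a GC offset and -0.0082 with GC offset and replicate block. AGO3 did not pass without a filter on edgeR (0.21) or FPKM (0.20), or with the GC offset (0.12, also with the block), nor AGO4 with the GC offset (0.14, also with the block) or library 3 of siMCT4 alone (0.19). TARBP2 did not pass without a filter on edgeR (0.51) or FPKM (0.40) or with library 3 alone (0.16). Leaving out 1 library gave log2 changes of -0.30 to -0.19 for AGO1, 0.17 to 0.26 for AGO3, 0.18 to 0.25 for AGO4, 0.41 to 0.69 for TARBP2, -0.15 to -0.066 for XPO5 and 0.019 to 0.089 for DROSHA; 3 to 6 silencing genes were then higher (3 without siMCT4 replicate 1 or control replicate 2 or 3) and 1 or 2 lower (1 without control replicate 1). Leaving out 1 library moved the share of AGO2 by less than its SD, but this holds for any 3 values and so cannot test the share. HSP90AA1 stood at -0.044 with the GC offset, -0.045 with GC offset and block and -0.00021 to 0.041 with 1 library left out (-0.00021 without control replicate 3), and MIR17HG at 0.025 on TPM. Of 49 genes named beside the silencing genes and SLC16A3, 14 lost a call in at least 1 setting. The other 35 include genes that had no call to lose, such as DGCR8 and CNOT1. They also include the genes with profiles closest to AGO2 and DICER1, which are on no partner list. Except where shown, the cause was not tested.

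No pairing of the samples by replicate number was detected. Deviations of same-numbered libraries correlated at -0.101, 0.0713 and -0.148, and not every library correlated best with its own number. All correlations between siMCT4 and control libraries were weak, from -0.162 to 0.173, and cannot exclude pairing. With the replicate block 3341 genes were called higher and 3580 lower, and AGO3 (0.20) and TARBP2 (0.49) did not pass.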
